A study of Mus musculus with 61 samples.

Results

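The arrays described here measured the coronal level of the mouse brain that contains the hippocampus, the thalamus and the hypothalamus. That level comprised 4 of the 29 coronal arrays and of the 61 arrays in all, namely the fractions C7 and C8 of one mouse and Co8 and Co9 of another. They were chosen by their fraction numbers, and the other 25 coronal arrays, from 11 further fractions of the C mouse and 14 of the Co mouse, served for comparison. All mice were 8-week-old C57BL/6J males without transgene or treatment. Each brain was frozen and cut into 5 µm sections, and 200 consecutive sections were collected as a fraction 1 mm thick, numbered from caudal to rostral. The C brain was cut in the coronal plane and the Co brain in a slightly oblique coronal plane. The 19 sagittal arrays of the S and So mice and the 13 horizontal arrays of the H and Ho mice came from 4 further brains and were used to place the same genes along the other axes. Each fraction was a slab through the whole brain, so that cortex, striatum and fibre tracts at the same level were included, and fewer cells of a type and less RNA per cell cannot be told apart.

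The hippocampus stores spatial and episodic memory and is made of Ammon's horn and the dentate gyrus. The thalamus relays sensory and motor signals to the cortex through glutamatergic projection neurons, and the habenula, which lies dorsomedially above it, sends signals to monoaminergic nuclei of the midbrain. The hypothalamus lies ventrally and holds small groups of neurons that release peptides controlling feeding, sleep, water balance, growth and reproduction. Many of these peptides are made in 1 or a few nuclei, so that the corresponding transcripts mark the position of a slab closely.

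Levels are given as log2 intensity minus the 75th percentile of the array, so that 0 is the intensity below which 75% of the probes of that array lay. A gene was read with its brightest probe over the coronal arrays, and levels of different genes are not compared with each other. A probe entered the tests when it was well above background on at least 1 coronal array, which held for 34863 probes and 15129 named genes. The level was tested in 3 comparisons with limma, with the mouse as a block and Benjamini-Hochberg adjustment over all detected probes. The level was set against the other 25 coronal fractions, against the 4 neighbouring fractions (C6 and Co7 caudally, C9 and Co10 rostrally), and its rostral fractions (C8 and Co9) were set against its caudal fractions (C7 and Co8). Only 2 mice gave coronal arrays, which limits the precision, and the spread among the other coronal fractions, which enters the first comparison, includes variation along the brain, so that its p-values do not measure the spread between mice alone. In the other comparisons, the spread was that within matched C and Co fractions. The study had matched C7 with Co8 and C8 with Co9 by the correlation of these same arrays, and the other fractions likewise, so that the likeness of matched fractions is not an independent result and the spread in the second and the third comparison is that of fractions picked for likeness.

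By the share of probes above background and by saturation, the arrays of the level were ordinary within the coronal series. The share of probes well above background was 69.3% (C7), 66.8% (C8), 70.1% (Co8) and 66.1% (Co9), within the range of 61.5 to 73.0% over all coronal arrays, and no spot was saturated. The background floor of C8, on the same log2 scale, was −6.75, above the −9.24 (Co7) to −7.52 (C10) of the other coronal arrays. The arrays of the level lay on 3 of the 8 coronal slides, each shared with neighbouring fractions of the same mouse, and the C and Co arrays were scanned on different days.

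The largest called differences between this level and the rest of the coronal series were those of the hypothalamic peptide genes Pmch and Hcrt, followed by the hormone subunit gene Cga and the habenular gene Gpr151. The promoters of genes on which the results turn are shown first, for the peptide and hormone genes, for genes of the thalamus and for the pair that separated the rostral from the caudal fraction. The 250 bases before the annotated start were taken from RefSeq on GRCm38.p6 and are written 5′ to 3′ on the strand of the gene. Capitals mark matches to TATAAA, the TATA box, to CTTTGA or its reverse complement TCAAAG, the core bound by TCF and LEF factors, and to TAATTA, a homeodomain core, searched on both strands. Among 32851 promoters of the same length, 12.4% held TATAAA, 13.8% CTTTGA and 4.84% TAATTA. The peptide genes Hcrt and Pmch and the hormone subunit gene Cga each held a TATA box, 33, 27 and 30 bases before the start.
Hcrt (chr11:100762932-100763181, minus strand): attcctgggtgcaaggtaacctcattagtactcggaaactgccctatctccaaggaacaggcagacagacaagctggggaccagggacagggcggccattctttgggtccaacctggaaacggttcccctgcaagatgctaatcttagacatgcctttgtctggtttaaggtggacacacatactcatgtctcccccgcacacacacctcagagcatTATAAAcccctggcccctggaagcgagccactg
Pmch (chr10:88090822-88091071, plus strand): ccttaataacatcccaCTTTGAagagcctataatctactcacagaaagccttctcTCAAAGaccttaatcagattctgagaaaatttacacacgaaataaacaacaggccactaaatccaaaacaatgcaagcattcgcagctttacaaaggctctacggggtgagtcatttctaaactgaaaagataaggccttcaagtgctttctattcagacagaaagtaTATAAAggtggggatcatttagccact
Cga (chr4:34893529-34893778, plus strand): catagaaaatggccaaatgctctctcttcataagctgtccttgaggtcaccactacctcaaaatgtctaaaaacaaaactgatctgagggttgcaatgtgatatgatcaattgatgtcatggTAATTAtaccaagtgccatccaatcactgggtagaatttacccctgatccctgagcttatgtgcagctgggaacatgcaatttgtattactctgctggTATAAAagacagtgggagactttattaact
The next sequences belong to Slitrk6, which encodes a membrane protein of synapses, and to Prkcd, which encodes a protein kinase C and is a marker of the thalamus. Slitrk6 held none of the 3 motifs, and Prkcd, read from 1 of the starts annotated for it, held TATAAA 244 bases before that start and the reverse CTTTGA core 139 bases before it, while the other start in the table held none of the 3.
Slitrk6 (chr14:110755150-110755399, minus strand): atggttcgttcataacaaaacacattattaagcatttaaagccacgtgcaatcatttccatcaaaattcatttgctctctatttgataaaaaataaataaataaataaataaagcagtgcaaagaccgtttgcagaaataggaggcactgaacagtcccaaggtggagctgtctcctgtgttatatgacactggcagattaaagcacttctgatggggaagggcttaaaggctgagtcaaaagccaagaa
Prkcd (chr14:30626209-30626458, minus strand): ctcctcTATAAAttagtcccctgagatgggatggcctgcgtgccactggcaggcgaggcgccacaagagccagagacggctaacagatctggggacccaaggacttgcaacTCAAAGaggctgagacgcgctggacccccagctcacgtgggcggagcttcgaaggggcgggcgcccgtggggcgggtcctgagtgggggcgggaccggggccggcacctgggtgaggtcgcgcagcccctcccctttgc
The last sequences belong to Avp and Oxt, which lie next to each other on opposite strands of chromosome 2 and which separated the rostral from the caudal fraction of the level. Neither held any of the 3 motifs in these windows.
Avp (chr2:130582589-130582838, minus strand): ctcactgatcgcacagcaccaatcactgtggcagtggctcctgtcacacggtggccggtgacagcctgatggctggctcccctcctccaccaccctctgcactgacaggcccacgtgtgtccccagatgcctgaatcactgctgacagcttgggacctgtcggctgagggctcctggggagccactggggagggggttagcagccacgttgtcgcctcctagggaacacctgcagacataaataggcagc
Oxt (chr2:130575919-130576168, plus strand): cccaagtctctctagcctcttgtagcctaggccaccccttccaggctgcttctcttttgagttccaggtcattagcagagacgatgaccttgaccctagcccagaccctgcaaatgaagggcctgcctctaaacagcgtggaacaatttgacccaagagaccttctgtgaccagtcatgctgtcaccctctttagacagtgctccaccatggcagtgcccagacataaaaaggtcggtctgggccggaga
A match describes these letters only and is neither evidence of binding nor a cause of the levels given below.

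In the level, 36 genes were higher and 2 were lower than in the other coronal fractions at an adjusted p below 0.05. The calls comprised 65 probes, 19 of them without a gene symbol, or 0.186% of the probes tested. The higher genes were 0.238% and the lower genes 0.0132% of the genes tested. Of the 36 higher genes, 27 exceeded a 2-fold difference, and the fold differences ranged from 1.38 to 42.4. All 36 were higher in both mice and on each of the 3 slides when set against the other fractions of the same slide. In 34 of them the highest fraction of both mice lay in the level. The groups did not overlap within either mouse for 23 of them. Over all detected genes, 0.37% were above every other fraction in both mice, 0.264% were below every other fraction and 1.64% peaked in the level in both mice. Because the 36 genes were called on these same arrays, their counts follow in part from the call and are not an independent result. The median difference was −0.03 over all detected genes. Without Co9 the number of called probes fell from 65 to 15, and without C7, C8 or Co8 it was 32, 36 and 38. All 38 named genes kept their direction without Co9, and 9 of them were still called. Of the 18 called genes named below by rule or list, 6 were called whichever single coronal array was left out, namely Pmch, Agrp, Prkcd, Slitrk6, Rgs16 and Ramp3.

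**Figure D1:**
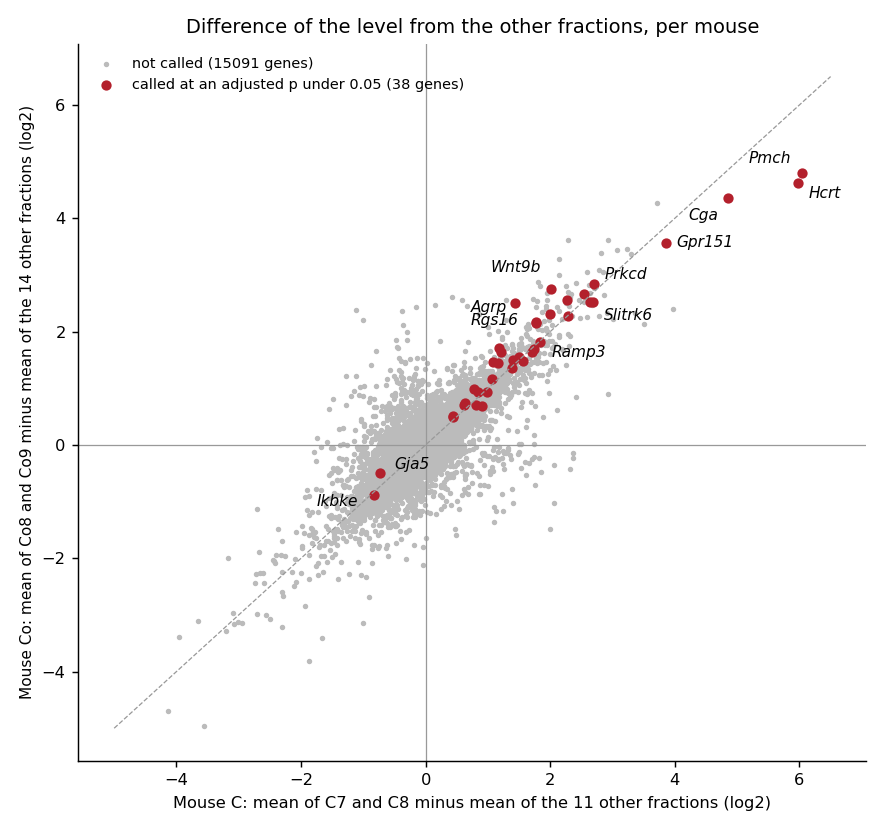
Difference between the level and the other coronal fractions (log2) in the C mouse (horizontal axis) and in the Co mouse (vertical axis), 1 point per detected gene, with the 38 called genes in red, the others in grey and the identity line dashed. The 36 higher genes lie in the upper right and the 2 lower genes in the lower left quadrant.

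The 2 largest called differences belonged to the peptides of the lateral hypothalamus, melanin-concentrating hormone (Pmch), which promotes feeding and sleep, and hypocretin (Hcrt), which sustains wakefulness. Pmch measured 2.07 in C7, 2.91 in C8, −0.05 in Co8 and 4.05 in Co9 (2.24 ± 1.73, SD, n = 4), against a lowest value of −5.07, a median of −3.03 and a highest value of −0.41 in the other coronal fractions (n = 25). Pmch did not overlap between the groups, although Co8 came within 1 log2 unit of the highest other fraction. The difference was 5.41 ± 0.72 (SE, 42.4-fold, adjusted p = 0.000193), with 6.04 in the C mouse and 4.79 in the Co mouse. Hcrt measured 2.31, 4.13, −0.27 and 4.89 in the same order (2.76 ± 2.30, SD, n = 4) against −4.41, −2.52 and 0.57. Co8 lay below Co10, the highest of the other fractions for Hcrt, and the other 3 fractions of the level lay above it. The difference in Hcrt was 5.29 ± 0.82 (SE, 39.0-fold, adjusted p = 0.00132), and without Co9 it was 4.58 and did not pass (adjusted p = 0.055).

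Agrp and Ghrh, both made in the arcuate nucleus, were higher as well. Agrp, which encodes an antagonist of melanocortin receptors that drives feeding, measured −3.34 in C7, −3.03 in C8, −4.05 in Co8 and −1.20 in Co9, against −5.39 to −4.09 with a median of −4.96 in the other fractions. The groups did not overlap, but Co8 exceeded the highest other fraction by little, and the difference was 1.97 ± 0.27 (SE, 3.91-fold, adjusted p = 0.000203). Ghrh, which encodes the hormone that releases growth hormone, measured −2.53, −0.95, −2.95 and −0.18 against −4.21 to −1.93 with a median of −3.37. For Ghrh only the rostral fractions C8 and Co9 stood above all others, and the difference was 1.67 ± 0.35 (SE, 3.19-fold, adjusted p = 0.0361). Without C8 or Co9 the difference in Ghrh was 1.39 and 1.19 and did not pass (adjusted p = 0.387 and 0.773). Ghrh also did not pass with the slide as a random block (1.52, adjusted p = 0.0955) or a fixed block (1.47, adjusted p = 0.386). Nor did it pass without the ends of the brain (1.59, adjusted p = 0.301) or without moderation (adjusted p = 0.0562).

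Of the 22 hypothalamic peptide genes detected, these 4 were called higher and 18 did not pass the test, with a median difference of 0.96. Among those that did not pass were Npy, an inhibitory peptide of cortical and hypothalamic neurons, with 0.23 ± 0.65 (SE, adjusted p = 0.893), and Sst, somatostatin, with 0.98 ± 0.58 (SE, adjusted p = 0.602). Hdc, which encodes the enzyme that makes histamine, measured 0.33 in C7, −1.28 in C8, 0.18 in Co8 and 0.17 in Co9, and peaked in C7 and Co8, but its difference of 1.47 ± 0.55 (SE) did not pass (adjusted p = 0.592). Of 19 hypothalamic transcription factor genes, none passed, while 1 did without Co8 and 1 without Co10. Nr0b1, a nuclear receptor gene of the ventromedial hypothalamus, was nearest, with a difference of 1.81 ± 0.41 (SE, adjusted p = 0.0734) and its peaks in C8 and Co9.

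Among the lists, that of thalamic neurons, which is the longest, held the most called genes, 5 against 4 in the hypothalamic peptide list. By share it held 21.7%, against 25% of the genes that the study listed for these regions. The lists were chosen with earlier results of these data known, and the difference between lists was not tested. Of 23 genes in the thalamus list, 5 were called higher and 18 did not pass, with a median difference of 0.99. Prkcd measured 3.60 in C7, 3.11 in C8, 2.76 in Co8 and 3.65 in Co9 (3.28 ± 0.42, SD, n = 4), against −0.80 to 1.55 with a median of 0.53 in the other fractions. Every fraction of the level exceeded every other fraction in Prkcd, with a difference of 2.77 ± 0.40 (SE, 6.82-fold, adjusted p = 0.00057), and another probe of the gene gave 2.79. Slitrk6 measured 0.83, 0.91, 0.13 and 1.00 (0.72 ± 0.40, SD, n = 4) against −2.82 to −0.27 with a median of −2.15. The groups did not overlap in Slitrk6, and the difference was 2.60 ± 0.37 (SE, 6.07-fold, adjusted p = 0.000431).

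Rgs16 and Ramp3, which encode a regulator of G protein signalling and an accessory protein of calcitonin-type receptors, behaved in the same way with smaller differences. Rgs16 measured 1.53 in C7, 1.48 in C8, 1.80 in Co8 and 2.28 in Co9 against −1.39 to 0.88, and the difference was 2.15 ± 0.30 (SE, 4.45-fold, adjusted p = 0.000381). Ramp3 measured 2.43, 2.41, 2.74 and 3.54 against −0.17 to 1.96, and the difference was 1.83 ± 0.25 (SE, 3.55-fold, adjusted p = 0.000203). Neither gene overlapped between the groups. The remaining called gene was Plekhg1 (adjusted p = 0.0329), which was well above background in 1 of the 4 fractions of the level, so that no size is given. Plekhg1 did not pass whichever of the 4 fractions of the level was left out (adjusted p = 0.0605 to 0.465), nor under normexp (0.14, adjusted p = 0.0801), with no replicate block or with the slide as a block.

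Other thalamic genes peaked in the level without passing the test. Tcf7l2, a transcription factor of thalamic and habenular neurons that binds the TCF core, measured 1.79 in C7, 1.53 in C8, 1.63 in Co8 and 1.75 in Co9 against −1.60 to 1.30, and its difference of 2.11 ± 0.48 (SE) did not pass (adjusted p = 0.0719). Its groups nevertheless did not overlap. Tnnt1, a troponin gene transcribed in the thalamus, measured 2.75, 1.62, 2.45 and 2.37 against −3.37 to 1.39, without overlap, and its difference of 2.72 ± 0.72 (SE) did not pass either (adjusted p = 0.212). Shox2, a homeodomain factor gene, differed by 2.94 ± 1.00 (SE, adjusted p = 0.545). Of the 23 thalamic genes, 9 peaked in the level in both mice, and in 7 of the 23 every fraction of the level exceeded every other fraction of its mouse.

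The habenula was represented by Gpr151, an orphan receptor gene of habenular neurons. Gpr151 measured −2.20 in C7, −2.54 in C8, −3.36 in Co8 and −2.18 in Co9 (−2.57 ± 0.55, SD, n = 4), against −8.63 to −4.53 with a median of −5.98 in the other fractions. The groups did not overlap, and the probe was well above background in all 4 fractions of the level and in 14 of the 25 others. The difference was 3.70 ± 0.60 (SE, adjusted p = 0.00247), read in part against background values, and without Co9 it was 3.54 (adjusted p = 0.0513). Of the 10 habenular genes detected, the other 9 did not pass, and the list had a median difference of 0.62. Pou4f1, a transcription factor of habenular and sensory neurons, differed by −0.05 ± 0.26 (SE, adjusted p = 0.946) and had its highest level in the first fraction of both mice.

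No gene of the hippocampal lists was called against the other fractions. Of 20 genes of Ammon's horn, 19 had a positive difference and none passed, with a median of 1.00. Spink8, a protease inhibitor gene of CA1 pyramidal neurons, measured 0.13 in C7, −1.39 in C8, 1.54 in Co8 and 0.47 in Co9, against −8.33 to 0.17 with a median of −3.03. Spink8 peaked in C7 and Co8, but C6 and Co7 reached 0.00 and 0.17, within the range of the level, and its difference was 3.99 ± 1.14 (SE, 15.9-fold, adjusted p = 0.315). Of 10 dentate gyrus genes, 8 had a positive difference and none passed, with a median of 0.54. C1ql2, a complement-related synaptic gene of granule cells, measured −0.16, −0.63, 0.18 and −0.56 and was highest in the fractions just caudal to the level, with 0.62 in C6 and 0.70 in Co7. Without C6, 1 gene of each of these lists passed, and whether hippocampal genes differed from thalamic or hypothalamic genes in this respect was not tested.

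**Figure D2:**
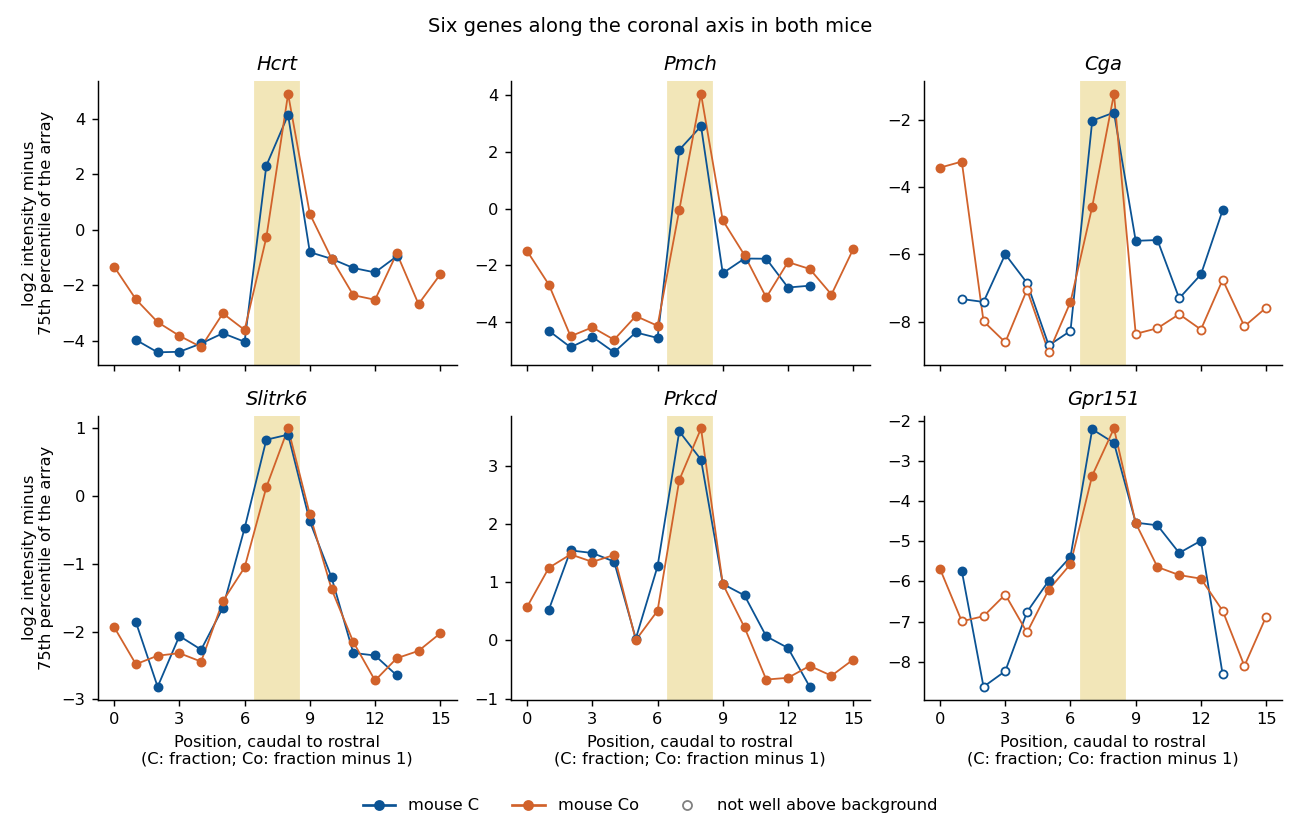
Level (log2 intensity minus the 75th percentile of the array) of Hcrt, Pmch, Cga, Slitrk6, Prkcd and Gpr151 along the coronal axis from caudal to rostral, with the fraction number for the C mouse and the fraction number minus 1 for the Co mouse. The shaded band marks the level and open points are not well above background, and all 6 genes are highest inside the band in both mice.

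The study also listed genes for these regions, which by its methods came from marker candidates of another expression database, and 16 of them were detected here. Of these, Hcrt, Gpr151, Slitrk6 and Ghrh were called higher (1 of them without Co9) and 12 did not pass, with a median difference of 1.51. Among the latter, Lhx8, a factor gene of basal forebrain neurons, differed by 1.08 ± 1.50 (SE, adjusted p = 0.762) and was highest in C10 and Co11, rostral to the level.

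Further genes higher in the level belonged to none of these lists. Wnt9b, which encodes a secreted Wnt ligand, measured −1.79 in C7, −2.23 in C8, −1.73 in Co8 and −1.16 in Co9 against −5.50 to −2.78, and the difference was 2.39 ± 0.44 (SE, 5.26-fold, adjusted p = 0.00948). Tafa4, a secreted chemokine-like protein gene, measured −3.78, −4.38, −3.58 and −3.22 against −8.22 to −4.91, well above background in 17 of the 25 others, and the difference was 2.41 ± 0.46 (SE, adjusted p = 0.0138). Gtf2a1l, a general transcription factor gene best known from the germ line, measured −3.19, −3.12, −2.97 and −2.15 against −7.39 to −3.54 and differed by 2.60 ± 0.52 (SE, adjusted p = 0.0259). Neither of these genes, nor Sec14l4 and Sh2d1a below, overlapped between the groups. Sec14l4, a lipid-binding protein gene, measured −2.12, −1.85, −2.57 and −1.40 against −6.52 to −2.90 and differed by 2.58 ± 0.54 (SE, adjusted p = 0.038). Sh2d1a, an adaptor gene known from lymphocytes, was dim, with −6.84, −6.55, −6.73 and −5.70 against −9.36 to −7.07, and was well above background in 1 of the 25 other fractions, so that its difference of 1.97 ± 0.32 (SE, adjusted p = 0.00233) was mostly read against background. Ppp1r3a, a subunit of a glycogen-bound phosphatase singled out after its values were seen, was well above background in C7 (−5.44), C8 (−5.71) and Co9 (−5.17) and in none of the other 25 fractions. It entered the test only through those fractions of the level, so that no fold is given. Without Co9 the genes Wnt9b, Tafa4, Gtf2a1l, Sec14l4 and Sh2d1a did not pass, with differences of 2.18, 2.30, 2.44, 2.39 and 1.73. Gtf2a1l and Sec14l4 did not pass whichever fraction of the level was left out, nor did Wnt9b and Tafa4 without C7 or Co8. With the slide as a fixed block, Gtf2a1l (1.71, adjusted p = 0.17), Sec14l4 (1.60, adjusted p = 0.688), Tafa4 (2.06, adjusted p = 0.223) and Sh2d1a (1.66, adjusted p = 0.108) did not pass. Sec14l4 did not pass with the slide as a random block either (1.86, adjusted p = 0.245). Without the ends of the brain, Wnt9b (2.49, adjusted p = 0.0561) and Gtf2a1l (2.25, adjusted p = 0.182) did not pass.

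Cga, the shared alpha subunit of the pituitary glycoprotein hormones, was the third of the called genes by size. Cga measured −2.03 in C7, −1.79 in C8, −4.58 in Co8 and −1.23 in Co9 (−2.41 ± 1.49, SD, n = 4), against −8.91 to −3.24 with a median of −7.41 in the other fractions, 8 of which were well above background. Co8 lay below the most caudal fractions of its own mouse, Co1 with −3.42 and Co2 with −3.24. The difference was 4.60 ± 0.80 (SE, adjusted p = 0.00515), read largely against background values, so that no fold is given, and without Co9 it was 4.08 (adjusted p = 0.144). The pituitary lies below the hypothalamus, and other pituitary genes were examined beside it. Of 7 detected genes of the pituitary list, 6 had a positive difference and only Cga passed, with a median of 0.49, and the mean of the list was −6.54 to −4.30 in the level and −7.55 to −5.04 in the other fractions. The ranges of these list means overlapped. Prl and Gh, the genes of prolactin and growth hormone, measured −1.50 and −3.17 in C8, which is a single fraction of the level, and neither gene passed. The part of pituitary tissue in the difference of Cga was not tested.

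The 2 genes lower in the level had small differences. Gja5, a gap junction gene of arterial endothelium, measured −4.26 in C7, −4.39 in C8, −4.50 in Co8 and −4.39 in Co9 against −4.32 to −3.32, and fell by 0.62 ± 0.13 (SE, adjusted p = 0.0346). The call of Gja5 was lost whichever fraction of the level was left out (adjusted p = 0.126 to 0.251), with no replicate block (adjusted p = 0.196), with the slide as a fixed block (adjusted p = 0.0899) and without the ends of the brain (adjusted p = 0.125). Each level fraction of Gja5 lay below the other fractions of its own mouse, while another probe of the gene differed by 0.0194 and did not pass. Ikbke, a kinase gene of innate immune signalling, was not well above background in any fraction of the level and was so in 12 of the 25 others. Its call (adjusted p = 0.00431) was lost under normexp (−0.09, adjusted p = 0.505), with the slide as a fixed block (−0.65, adjusted p = 0.189) and without Co8 (−0.72, adjusted p = 0.0811), and no fold is given.

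Beside these genes, lists of other brain regions and tissues were examined for what else the slabs held. No gene of the isocortex list (15 genes, median difference 0.82) or of the striatum list (13 genes, 0.32) passed. The median difference was −1.01 for 10 olfactory bulb genes and −1.18 for 12 cerebellar genes, and it was −0.58 for 13 hindbrain genes, with none called. Of 15 choroid plexus genes, all had a positive difference with a median of 2.21, and none passed. The myelin list (11 genes) had a median of 0.22. The meninges list (10 genes) had a median of −0.76 and the blood list (3 genes) one of −0.95, with no gene positive and none called. These medians are descriptions and stand beside the −0.03 of all detected genes.

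**Figure D3:**
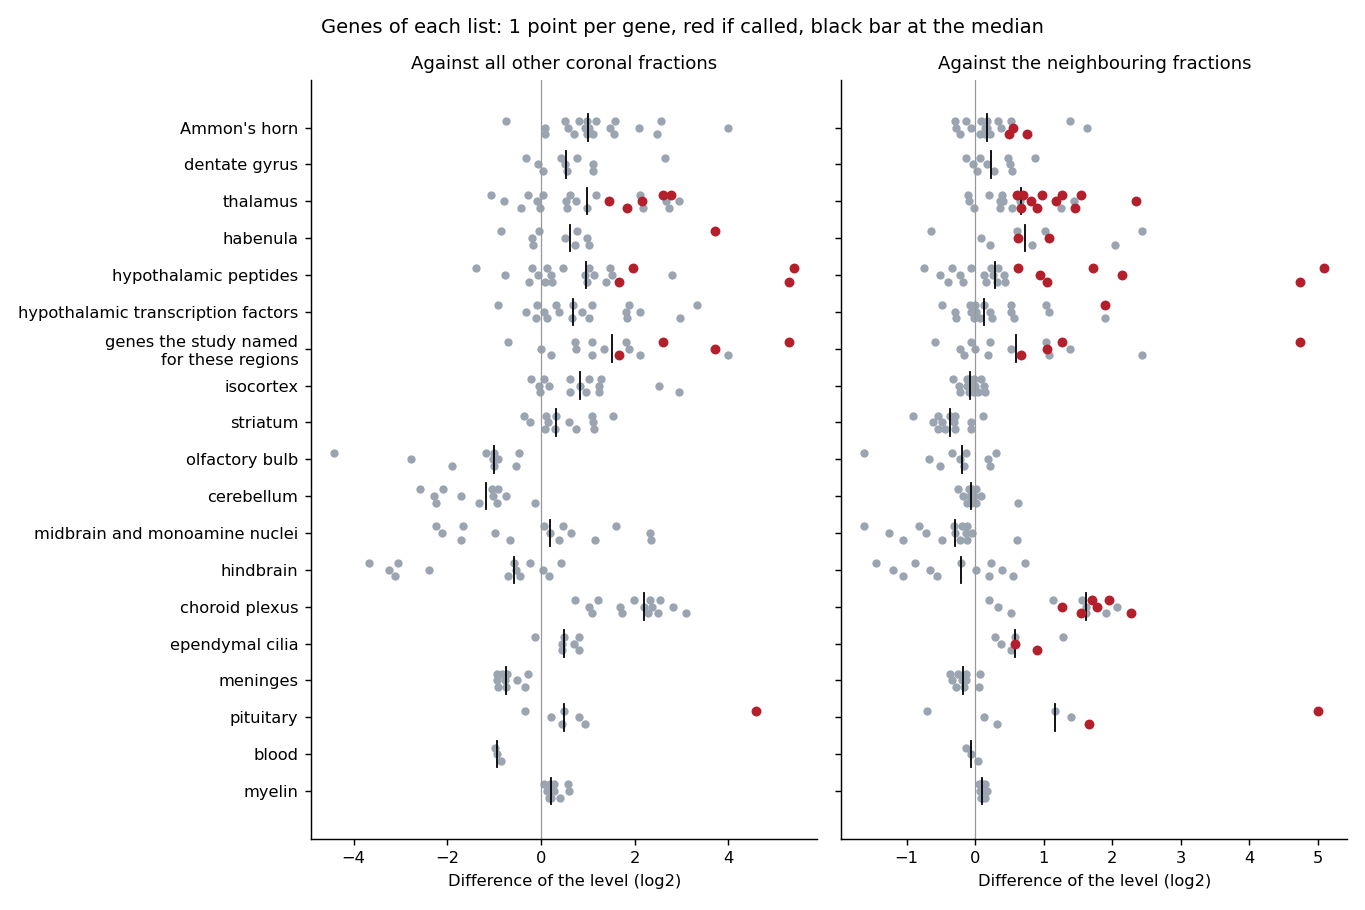
Difference of the genes of each list (log2, 1 point per gene, called genes in red, the median as a black bar), on the left for the level against the other 25 coronal fractions and on the right against the 4 neighbouring fractions. In both panels the thalamus list, which is the longest, holds more red points than any other list, and the choroid plexus list has the highest median.

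Against the adjacent slabs alone, 113 genes were higher and 13 lower in the level. The calls comprised 199 probes, 43 of them without a symbol, or 0.571% of those tested, with 0.748% of genes higher and 0.0861% lower. Of the 113 higher genes, 52 exceeded a 2-fold difference, 39 peaked in the level in both mice and 99 were positive on each of the 3 slides. These counts come from the arrays that gave the calls and follow in part from them. The 26 genes higher in this comparison and in the first are 72.2% of the genes higher in the first and 23% of those higher here, and the comparisons share the arrays of the level and its neighbours. The residual variance, with 12 degrees of freedom, came from the matched fractions of both mice along the whole series, and with the 8 arrays of the level and its neighbours alone limma called 0 probes, with 2497 at an unadjusted p below 0.05. Leaving out C7, Co9, C9 or Co7 reduced the 199 probes to 80, 85, 101 and 102. Of 45 called genes named by rule or list, 19 were called whichever of the 8 arrays was left out, namely Pmch, Hcrt, Agrp, Hdc, Pomc, Prkcd, Slitrk6, Tnnt1, Ramp3, Rgs16, Ntng1, Wnt9b, Gng8, Bok, F5, Clic6, Kl, Mab21l2 and Pbx3.

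Thalamic genes, the longest list, were the group with the most calls, with 11 of 23 higher, 12 not passing and a median difference of 0.67. Their share was 47.8%, against 40% in the choroid plexus list, and the difference between lists was not tested. Without C7, Co9, C9 or Co7 the number was 6 in each case. Prkcd fell off on both sides of the level, with 1.27 in C6 and 0.97 in C9, and 0.51 in Co7 and 0.97 in Co10, and was 2.35 ± 0.23 higher in the level (SE, 5.08-fold, adjusted p = 0.00043). Tnnt1 was 1.39 and 0.20 in C6 and C9 and 1.12 and 0.34 in Co7 and Co10, and the difference was 1.54 ± 0.18 (SE, 2.91-fold, adjusted p = 0.00128). Ntng1, which encodes a netrin-like ligand of thalamocortical axons, was 2.54 and 1.98 in C6 and C9 and 2.62 and 2.05 in Co7 and Co10. Ntng1 reached 3.12 in C7, 3.03 in C8, 2.93 in Co8 and 3.34 in Co9, without overlap, and the difference was 0.81 ± 0.10 (SE, adjusted p = 0.00159), while another probe of the gene gave 0.79 and did not pass (adjusted p = 0.124). The transcription factor genes Tcf7l2 (0.97, adjusted p = 0.0342), Gbx2 (0.91, adjusted p = 0.0361), Lef1 (0.61, adjusted p = 0.0176) and Rora (0.69, adjusted p = 0.0107) were higher, as were Ramp3 (1.46), Slitrk6 (1.26), Rgs16 (1.17) and Adarb2 (0.67), an RNA-editing family gene. Of the 2 other probes of Tcf7l2, 1 passed and the other gave 1.08 (adjusted p = 0.0697). Wnt9b, which is in no list, was 2.41 ± 0.22 higher (SE, 5.30-fold, adjusted p = 0.000256).

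Of the hypothalamic peptide list, 7 of 22 were higher and 15 did not pass, with a median of 0.29. Pmch dropped to −4.56 in C6 and −4.13 in Co7 caudally and to −2.28 in C9 and −0.41 in Co10 rostrally, and its difference was 5.09 ± 0.51 (SE, 34.1-fold, adjusted p = 0.000492). Hcrt was −4.03 and −3.61 in C6 and Co7 and −0.81 and 0.57 in C9 and Co10, and its difference was 4.73 ± 0.57 (SE, 26.6-fold, adjusted p = 0.00159). Both peptides thus fell more steeply caudally than rostrally in value, and neither the steepness nor a transfer of material between successive fractions was tested. Agrp was higher by 2.14 ± 0.32 (SE, 4.42-fold, adjusted p = 0.00661) and Ghrh by 1.04 ± 0.19 (SE, 2.06-fold, adjusted p = 0.0261). In Ghrh, C7 and Co8 lay below the rostral neighbour of their own mouse. Ghrh did not pass without C7 (0.87) or Co9 (0.89), nor with no replicate block (adjusted p = 0.0613). Hdc was −2.70 and −1.47 in C6 and C9 and −2.63 and −0.65 in Co7 and Co10, and was higher in the level by 1.71 ± 0.23 (SE, 3.27-fold, adjusted p = 0.0038), although C8 with −1.28 lay within the range of the neighbours. Pomc, the precursor of melanocortins, was higher by 0.94 ± 0.13 (SE, adjusted p = 0.00397), although Co8 lay below Co10. Tac2, the neurokinin B precursor of arcuate and habenular neurons, was higher by 0.62 ± 0.11 (SE, adjusted p = 0.0209).

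Among hypothalamic transcription factors, 1 of 19 was higher, and the median was 0.13. The number was 0 without C7 or Co9 and 2 without Co10. Nkx2-1, which specifies the ventral forebrain, measured −4.41 in C7, −3.99 in C8, −4.66 in Co8 and −3.93 in Co9. Its neighbours were −3.93 in C9 and −4.05 in Co10 on the rostral side and not well above background in C6 and Co7 on the caudal side, so that the difference of 1.89 ± 0.30 (SE, adjusted p = 0.0103) was read against background caudally and its size is not measured. It did not pass on the intensities normalized by the authors (1.87, adjusted p = 0.984). Isl1, a homeodomain factor of arcuate and striatal neurons, had the same form, with −2.92, −1.84, −3.77 and −1.60 in the level, −7.83 and −7.17 caudally and −1.53 and −1.34 rostrally, and a difference of 1.94 ± 0.34 (SE, adjusted p = 0.0211).

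Of the habenula list, Gng8, a G protein subunit gene, was higher by 1.07 ± 0.14 (SE, adjusted p = 0.00316) beside Tac2, while the 2.44 ± 0.51 (SE) of Gpr151 did not pass here (adjusted p = 0.0559). In Ammon's horn, 3 of 20 genes were higher, and 1 was without C7, Co8, Co9, C9 or Co7. Npy2r, a receptor of neuropeptide Y, was −1.20 in C7, −1.64 in C8, −0.92 in Co8 and −1.23 in Co9 against −1.56, −2.59, −1.76 and −2.07 in C6, C9, Co7 and Co10, and the difference was 0.75 ± 0.13 (SE, adjusted p = 0.0214). C8 lay just below C6 in Npy2r, and the other 3 fractions of the level exceeded all neighbours. Bok, an apoptosis regulator gene of pyramidal neurons, was higher by 0.55 ± 0.08 (SE, adjusted p = 0.00512) and Amigo2, an adhesion gene of CA2 neurons, by 0.49 ± 0.10 (SE, adjusted p = 0.0391). Amigo2 did not pass under median scaling (adjusted p = 0.0639), in the authors' table (adjusted p = 0.0584) or whichever fraction of the level was left out (adjusted p = 0.0563 to 0.23). No dentate gyrus gene passed, with a median of 0.22 over 10.

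Of 15 genes of the choroid plexus, which secretes cerebrospinal fluid into the ventricles, 6 were higher against the 4 neighbours, and 3 were without C7, Co9, C9 or Co7. All 15 had a positive difference, with a median of 1.61. Ttr, the transthyretin gene and the most abundant transcript of that tissue, measured 1.40 in C7, 1.38 in C8, 1.94 in Co8 and 2.37 in Co9, against −2.14 in C6, 1.20 in C9, −3.36 in Co7 and 2.31 in Co10. Each level fraction of Ttr exceeded both caudal neighbours, while Co10 lay above Co8 and just below Co9. The difference from the 4 neighbours was 2.27 ± 0.44 (SE, adjusted p = 0.0348), and its highest levels of the coronal series lay far caudally, 2.38 in C3 and 3.07 in Co4. F5, a coagulation factor gene also transcribed in the choroid plexus, measured −2.17, −2.43, −2.90 and −2.68 against −5.64, −2.77, −6.90 and −2.70 in C6, C9, Co7 and Co10, and differed by 1.96 ± 0.25 (SE, adjusted p = 0.00215). As with Ttr, the rostral neighbours of F5 were close to the level and Co10 lay above Co8. Folr1 (1.77, adjusted p = 0.0348), Clic6 (1.71, adjusted p = 0.00159), Steap1 (1.55, adjusted p = 0.0183) and Kl (1.27, adjusted p = 0.00297) were also higher. The mean of the whole list was −0.76 to −0.51 in the level, −3.77 to −0.52 in the neighbours and −4.45 to 0.24 in all other coronal fractions. The part of choroid plexus in the differences of other genes was not tested. Of 7 genes of ependymal cilia, Dynlrb2 (0.90, adjusted p = 0.0148) and Rsph1 (0.59, adjusted p = 0.0473) passed, although another probe of Dynlrb2 did not (0.79, adjusted p = 0.097). The mean of that list was −1.16 to −0.90 in the level and −2.48 to −0.76 in the neighbours, so that the highest neighbour exceeded every level fraction. Of the pituitary list, Cga passed (5.00 ± 0.96, SE, adjusted p = 0.0348), which was well above background in 2 of the 4 neighbours. Tshb passed as well, and was well above background in 1 fraction of the level and in none of the neighbours. No gene of either list passed without C7, Co9, C9 or Co7, nor of the pituitary list without Co10. Tshb did not pass under normexp (0.14, adjusted p = 0.638) or without moderation (adjusted p = 0.068) either.

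The 13 lower genes included several that were dim in the level. Mab21l2, a developmental gene of the midbrain roof, measured −5.99 in C7 and −5.14 in Co8 and was not well above background in C8 and Co9, against −3.60 in C6 and −3.17 in Co7 caudally. Rostrally, Co10 measured −6.33, below both of the measured level fractions, and C9 was not well above background. Mab21l2 was called lower than the 4 neighbours (adjusted p = 0.00143), but only the caudal ones lay above the measured level fractions, and the size is not given. Pbx3, a homeodomain cofactor gene, was measured in every fraction, with 0.21, 0.40, 0.07 and 0.14 in the level against 0.71, 1.23, 0.70 and 0.76 in C6, C9, Co7 and Co10. Pbx3 did not overlap between the groups and fell by 0.64 ± 0.09 (SE, adjusted p = 0.00537). Vwa7, Ankrd22 and Abcc12 were not well above background in any fraction of the level, and were so in 2, 2 and 1 of the 4 neighbours. Under normexp they differed by −0.21, −0.20 and −0.12 and did not pass, and another probe of Abcc12 differed by 0.22, so that no fold is given. Fgf3, a growth factor gene, fell by 1.29 ± 0.22 (SE, adjusted p = 0.0165) and did not pass without C7 or Co9 (adjusted p = 0.0858 and 0.111). Cnn1, Ebf2, Dkk2 and Crabp2 had differences of −0.71, −0.70, −0.63 and −0.58, and none of them passed with no replicate block. Under normexp Ebf2 (−0.40, adjusted p = 0.168) and Crabp2 (−0.12) did not pass, nor did Cnn1 in the authors' table (adjusted p = 0.0563). Cnn1 and Ebf2 did not pass whichever fraction of the level was left out, nor did Dkk2 and Crabp2 without C7 or Co9. No gene of the striatum list passed, and its median was −0.37, with 1 of 13 positive. The midbrain list had a median of −0.30, with 1 of 15 positive and none called.

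Within the level, the rostral fractions C8 and Co9 differed from the caudal fractions C7 and Co8 in 24 probes, or 0.0688% of those tested, of which 9 had no symbol. Of the named genes, 8 (0.0529%) were higher rostrally and 6 (0.0397%) caudally. Each side held 1 fraction per mouse, and the number of probes was 15 without Co8, 47 without C7 and 131 without C8. Of the 13 called genes named by rule, Avp, Oxt and Pomc were called without any single array of the level. Peptides of the anterior and tuberal hypothalamus led the rostral side. Avp, vasopressin, measured −3.56 in C7 and 3.31 in C8, and −4.89 in Co8 and 3.16 in Co9. Avp remained at 2.96 in C9 and 4.17 in Co10, and the rostral fractions of the level exceeded the caudal ones by 7.46 ± 0.80 (SE, 176-fold, adjusted p = 0.00259). Oxt, oxytocin, measured −3.73 and 2.11 in C7 and C8 and −3.94 and 2.34 in Co8 and Co9, and 2.56 and 4.17 in C9 and Co10, and the difference was 6.06 ± 0.63 (SE, 66.5-fold, adjusted p = 0.00247). Avp and Oxt are made together in the supraoptic and paraventricular nuclei, and both stayed high in the fraction rostral to the level.

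Pomc and Ghrh had their peaks in C8 and Co9. Pomc measured −0.12 in C7, 1.51 in C8, −0.38 in Co8 and 1.56 in Co9, with −0.52 and 0.29 in C9 and Co10, and the rostral side was higher by 1.78 ± 0.18 (SE, 3.44-fold, adjusted p = 0.00247). Ghrh was higher rostrally by 2.18 ± 0.27 (SE, 4.53-fold, adjusted p = 0.0088), with −2.52 in C9 and −1.93 in Co10. Hcrt, with a difference of 3.50 ± 0.81 (SE), and Pmch, with 2.47, had higher values rostrally in both mice but did not pass (adjusted p = 0.298 and 0.726). Sytl4, a regulator gene of secretory granules, was higher by 1.47 ± 0.24 (SE, adjusted p = 0.0425). Six6, a factor gene of the suprachiasmatic region and eye, was called but was not well above background in any of the 4 fractions, and no fold is given.

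Among the genes called lower rostrally were genes of midbrain dopamine neurons. Foxa2, a transcription factor gene that maintains these neurons, measured −3.00 in C7, −6.66 in C8, −1.82 in Co8 and −6.53 in Co9, and −1.03 and −1.07 in C6 and Co7, so that its level dropped stepwise from caudal to rostral in both mice. Foxa2 was lower on the rostral side by 18.1-fold (−4.18 ± 0.50, SE, adjusted p = 0.00794), and without Co8 the difference was −3.44 (adjusted p = 0.0589). Its value in C8 lay close to the background floor of that array (−6.75), so that the size was read in part near background. Chrna6, a nicotinic receptor subunit gene of dopamine neurons, measured −4.23 and −6.15 in the C mouse and −2.96 and −5.87 in the Co mouse and was 5.33-fold lower rostrally (−2.41 ± 0.36, SE, adjusted p = 0.0267). Chrna6 did not pass without C8 (−2.30, adjusted p = 0.0643), Co8 (−1.76, adjusted p = 0.201) or Co9 (−2.53, adjusted p = 0.0802), so that neither of these genes was called without Co8. Slc6a3, the dopamine transporter gene, differed by −3.89 and did not pass (adjusted p = 0.0518). Lmx1a, a determinant of the same neurons, was well above background only in Co8. Lmx1a was called lower rostrally (adjusted p = 0.00937), but did not pass under normexp (−0.11) or without Co8 (−1.44, adjusted p = 0.105), and no fold is given. Svs5, best known as a secreted protein gene of the seminal vesicle, measured −4.80 in C7 and −4.02 in Co8, was not well above background in C8 and Co9, and was at least 7.57-fold lower there (adjusted p = 0.0287). Spp2, a secreted phosphoprotein gene, was 3.50-fold lower rostrally (adjusted p = 0.0267). Mab21l2 was called lower as well, but did not pass under normexp (−0.30), without Co8 (−1.20, adjusted p = 0.212) or without Co9 (−1.55, adjusted p = 0.119). Svs5 and Spp2 also lost their calls without Co8 (−2.66 and −1.70) or without Co9 (−3.27 and −1.58). Of 15 genes of the midbrain list, Foxa2 and Chrna6 passed, both caudally, and of 22 hypothalamic peptides Avp, Oxt, Pomc and Ghrh passed, all rostrally.

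**Figure D4:**
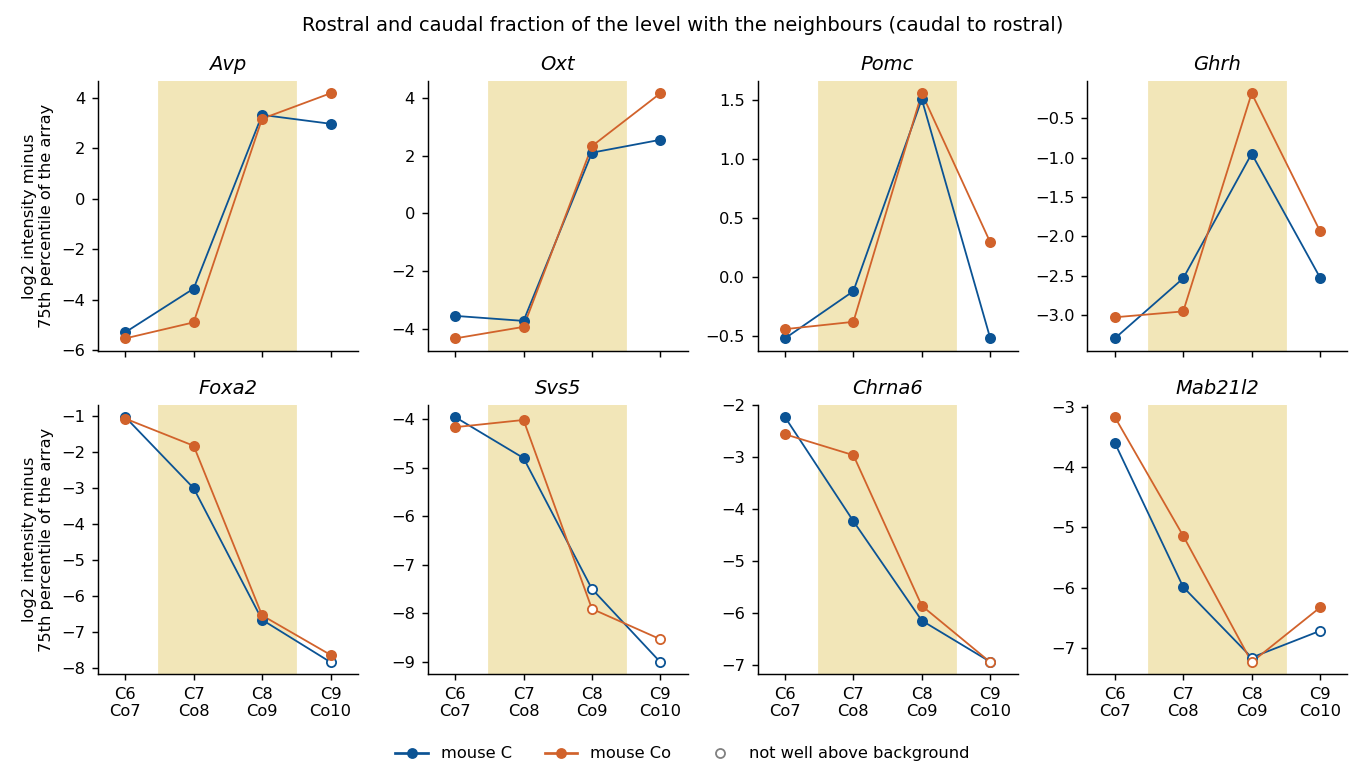
Level (log2 intensity minus the 75th percentile of the array) of Avp, Oxt, Pomc and Ghrh (top) and of Foxa2, Svs5, Chrna6 and Mab21l2 (bottom) in the matched fractions C6/Co7, C7/Co8, C8/Co9 and C9/Co10, with 1 line per mouse. In both mice the top genes step up and the bottom genes step down from C7/Co8 to C8/Co9.

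The horizontal and sagittal fractions of 4 other mice, which the choice of the level did not use, gave the position of the same genes along the other axes. A linear slope was fitted with limma to the order of the horizontal fractions and to the distance of the sagittal fractions from the midline. Over all genes tested in the horizontal fractions, 15.1% rose ventrally and 12.8% dorsally, and over those tested in the sagittal fractions 26.5% rose laterally and 22.2% towards the midline. Of the genes higher in the level than in the other coronal fractions, 34 could be tested along the horizontal fractions, and 7 rose ventrally and none dorsally. Of 32 tested in the sagittal fractions, 17 rose towards the midline and 1 laterally. Of the 113 genes higher than in the neighbours, 110 could be tested in each plane, and 30 rose ventrally and 2 dorsally, and 78 towards the midline and 3 laterally. When each array was scaled to its median instead, 10.1% of all genes rose ventrally and 18.7% dorsally, and 42.5% laterally and 14.0% towards the midline. The counts under that scaling were 6 ventral and 1 dorsal, and 14 towards the midline and 1 lateral, for the first set of genes. They were 30 ventral and 5 dorsal, and 73 towards the midline and 3 lateral, for the second.

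Hcrt, Pmch, Agrp and Ghrh had higher levels in ventral fractions. Hcrt was highest in H5 (4.39) and Ho6 (3.91) among the horizontal and in S7 (3.62) and So7 (3.47) among the sagittal fractions, next to the midline fraction 6. Its slopes were 1.28 ± 0.33 per fraction ventrally (SE, adjusted p = 0.014) and −1.19 ± 0.38 per fraction from the midline (SE, adjusted p = 0.018). Pmch peaked in the same 4 fractions, with slopes of 1.34 ± 0.35 (SE, adjusted p = 0.016) and −1.20 ± 0.37 (SE, adjusted p = 0.013). Sagittal fractions 10, 9 and 8 lie at the same distance from the midline as 2, 3 and 4 on the other side. In these the higher-numbered fraction had the higher level of Hcrt and of Pmch in 6 of 6 pairs, so that the slope averages over unlike sides. The fractions next to the midline, 7 and 5, were not among these pairs. Agrp peaked in the most ventral fractions H6 and Ho7, and Ghrh rose ventrally by 0.87 ± 0.11 per fraction (SE, adjusted p = 0.0002) and fell by 0.56 ± 0.11 per fraction from the midline (SE, adjusted p = 0.00057). Cga was highest in H6 (0.19) and Ho7 (−1.05), which are the most ventral fractions.

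Of the thalamic and habenular genes, Prkcd and Gpr151 had their peaks at mid height. Prkcd peaked in H4 (2.37) and Ho4 (2.32) and had no called dorsoventral slope (adjusted p = 0.64), while it fell by 0.62 ± 0.11 per fraction from the midline (SE, adjusted p = 0.00026). Slitrk6, with its peaks in H4 (0.33) and Ho5 (0.41), rose ventrally by 0.52 ± 0.17 per fraction (SE, adjusted p = 0.047) and fell by 0.88 ± 0.12 per fraction from the midline (SE, adjusted p = 1.5e-05). Gpr151 was highest in H3 (−2.91) and Ho4 (−2.63), and in S6 (−3.37) and So5 (−2.08), and neither slope was called (adjusted p = 0.89 and 0.13).

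**Figure D5:**
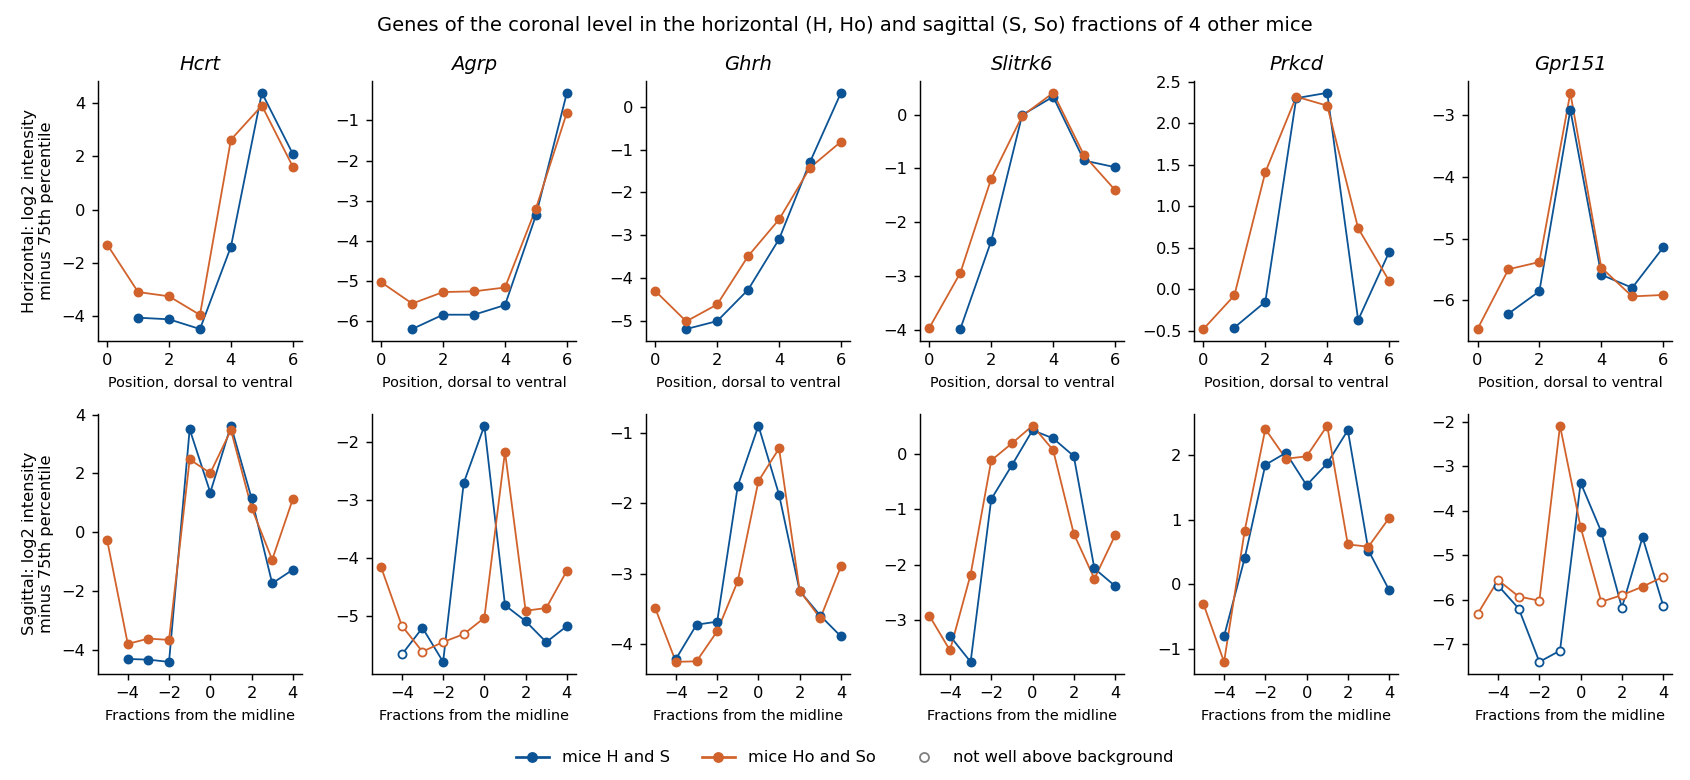
Level (log2 intensity minus the 75th percentile of the array) of Hcrt, Agrp, Ghrh, Slitrk6, Prkcd and Gpr151 in the horizontal fractions of the H and Ho mice from dorsal to ventral and in the sagittal fractions of the S and So mice by distance from the midline fraction. Hcrt, Agrp and Ghrh are highest in the ventral fractions, and Prkcd and Gpr151 at mid height.

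The difference between the level and the other coronal fractions was also compared between the 2 mice by an interaction term. Of 34863 probes, 2 were called, both without a gene symbol, and no named gene passed. Both probes entered the test only through C7 and C8, where they were high, so that their calls do not show a difference between the mice. The difference in Pmch was 6.04 and 4.79 and that in Hcrt 5.98 and 4.61 in the C and the Co mouse, and neither differed by this test. With 2 fractions per mouse, a p that misses the threshold does not show that the mice are alike.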

How the data were processed

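Per the labels and file headers, each array carried the labelled RNA of 1 fraction. The authors deposited spot intensity values written by Agilent Feature Extraction 9.1.3.1, background-subtracted and not normalized between arrays, and a table of intensity values normalized per array in GeneSpring GX, which served as an alternative. Here, 43379 non-control spots without the 2299 outlier flags of all arrays gave log2 values, which were averaged for 41174 probes and set relative to the 75th percentile of their array. Probes were named through RefSeq accessions or by the files, which gave 16358 genes, each read with its brightest probe over the 29 coronal arrays. The files name another array design (014868) than the methods do.

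The study's ANOVA over matched fractions asks only whether a probe varies, so contrasts between the fractions named were fitted with limma 3.58.1 in R 4.3.3, with the mouse as a block, since the fractions of a series come from 1 mouse. The slope fits were made in the same way. Contrasts without moderation were an alternative. On simulated data with a log2 difference of 1, limma recovered 58.5% of changed probes for the level against the other fractions, 73% against the neighbours and 55.5% for rostral against caudal. Genes named were those of the lists and the called genes with the largest differences of the same sign in both mice, up to 15 in each direction against the other fractions, 10 against the neighbours and 8 for rostral against caudal, higher genes of the first 2 comparisons being well above background in all 4 fractions. A gene named by this rule is not reported here. Members and lists were chosen with earlier results of these data known. Alternatives were median scaling, the authors' table, normexp (offset 50) with quantile normalization, other filters and probes, no block, slides as blocks, single mice, and leaving out arrays, where leaving out arrays outside the level was chosen after seeing the data. Figures were drawn with matplotlib 3.10.9 in Python 3.11.15.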

Additional observations from a re-analysis of the deposited data

Results flagged for a closer look

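Hdc stood out within the level. Its levels were 0.33 in C7, 0.18 in Co8 and 0.17 in Co9, and −1.28 in C8. The gap from C8 to its nearest neighbour was 0.899 of the range of the 4 values, above Dixon's critical value for groups of 4. Of 63 genes tested in this way 1 was singled out, where chance gives about 1 in 20. C8 was 1 of the 2 fractions on the rostral side, and Hdc did not differ between the sides by limma (−0.81, adjusted p = 1).

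Probes A_52_P284996 and A_52_P907186, for which no gene symbol was found, were called by the interaction term between the mice. A_52_P284996 measured −5.30 in C7 and −5.86 in C8, and −9.63 in Co8 and −8.77 in Co9, and its difference from the other coronal fractions was 3.40 in the C mouse and −0.25 in the Co mouse (interaction −3.65, adjusted p = 0.000482). A_52_P907186 measured −5.57, −6.06, −9.63 and −8.77, with differences of 3.14 and −0.37 (interaction −3.51, adjusted p = 0.000522). Both probes were well above background in C7 and C8 only and entered the test through these arrays. Their differences were read against background, so that the sizes and adjusted p-values above only record the calls. They do not measure a difference between the mice, and the calls do not show one. The cause was not tested.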

How the results depend on the processing

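All 38 genes called against the other fractions, all 126 against the neighbours and all 14 between the sides kept their direction in each alternative that tested them, other probes apart, and the counts of calls were less stable. Against the other fractions the 65 called probes became 39 with probes well above background on all 29 arrays, 30 at an adjusted p of 0.01, 38 without the ends of the brain, 7 in the C mouse alone and 2 in the Co mouse alone, and ranged from 15 (without Co9) to 82 (without C6) when 1 array was left out. Against the neighbours the 199 probes became 90 with no replicate block, 69 at 0.01, 391 with the slide as a random block and 0 with 8 arrays alone, and ranged from 80 (without C7) to 278 (without C8). Between the sides the 24 probes became 40 with normexp and quantile normalization, 12 with probes well above background on all arrays, 10 without moderation, 9 at 0.01 and 47 with the slide as a random block, and ranged from 15 (without Co8) to 131 (without C8). With fewer arrays or mice the tests had fewer residual degrees of freedom, yet some of these counts rose. The cause of the changes was not tested in any setting. The fit with no replicate block, which leaves out the mouse, gave 53 probes against the other fractions and 16 between the sides. Median scaling, the authors' table and the filter of 4 arrays kept the 3 counts within 1.5 times. With the slide as a fixed block, 22 of the 38 genes were still called. Other probes of Gja5 and Abcc12 gave 0.0194 and 0.22, the opposite sign, and neither passed. With normexp, the differences of dim genes were smaller, for example 0.48 for Isl1 against the neighbours and 0.15 for Six6 between the sides, and did not pass. Sytl4 did not pass with median scaling (1.43, adjusted p = 0.0715).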

Other observations

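Hcrt, Pmch, Avp and Oxt, singled out after their values were seen, had different levels in fractions on both sides of their peaks. In the C mouse, Hcrt was −4.41 to −3.73 in the 6 fractions caudal to the level and −1.54 to −0.95 in the 4 most rostral fractions. Pmch was −5.07 to −4.31 caudally and −2.78 to −1.76 rostrally, Avp −6.98 to −5.11 and −2.91 to −0.80, and Oxt −4.06 to −3.45 and −2.37 to −0.33, so that the ranges did not overlap in any of the 4 genes. In the Co mouse, Hcrt was −4.22 to −2.50 in Co2 to Co7 and −2.67 to −0.85 in the 6 most rostral fractions. Pmch was −4.63 to −2.68 and −3.14 to −1.43, and Oxt −4.40 to −2.63 and −3.02 to 1.81, so that the ranges of these 3 genes overlapped there, while those of Avp, −7.91 to −4.97 and −2.50 to 0.96, did not.

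The sagittal fractions had the same form. In S and So, the fractions 10, 9 and 8 were set against 2, 3 and 4, which lie at the same distance from the midline fraction on the other side. The higher-numbered fraction had the higher level in 6 of 6 pairs for each of the 4 genes, by 2.59 to 5.56 for Hcrt, 0.79 to 5.26 for Pmch, 2.01 to 5.56 for Avp and 0.72 to 4.20 for Oxt (log2). The median over all detected genes differed by −0.02 to 0.05 in the same pairs. The fractions next to the midline, 7 and 5, were not among these pairs. For Avp, fraction 7 was lower than fraction 5 in S (2.64 and 2.72) and higher in So (1.88 and 1.03). The first fractions of the oblique series were also higher than the second ones. Hcrt measured −1.33 in Co1 and −2.50 in Co2, −0.27 and −3.79 in the first 2 fractions of So, and −1.31 and −3.10 in those of Ho. Pmch measured −1.50 and −2.68, −0.13 and −4.37, and −1.07 and −4.51 in the same fractions. Whether material was transferred between successive fractions was not tested.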
